A study of Mus musculus with 42 samples.

Results

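The genes described here are 8 regulators and markers of progenitor spermatogonia, the undifferentiated male germ cells that have left the stem cell state but do not yet carry the c-Kit receptor: *Zbtb16*, *Sall4*, *Neurog3*, *Nanos3*, *Sox3*, *Foxo1*, *Upp1* and *Uchl1*. They were taken by name from the 27179 genes of the count table, for what they are known to mark and not for their measured values. Earlier results of these data were, however, known at that choice. All 8 passed the filter on low counts in every comparison. Poly(A) RNA was sequenced from Thy1+ and c-Kit+ spermatogonia of male C57BL/6J mice at 10 days post-partum (dpp), with 3 libraries in each of 4 groups. Control mice were *Ddx4-Cre*; *Chd8* +/F and mutant mice were *Ddx4-Cre*; *Chd8* F/-, so that every animal carried the germ-cell Cre and 1 floxed (F) allele of the chromatin remodeler gene *Chd8*, and the second allele was wild type in controls and deleted in mutants. *Ddx4-Cre* acts in germ cells, and the control germ cells therefore also lose 1 copy of *Chd8*. Cells were sorted with magnetic beads against c-Kit, and Thy1 beads were then applied to the flow-through. The methods speak of testes of male pups, but the labels do not say that the libraries of a group came from separate animals, so p-values measure the spread between these samples, which may be technical.

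Spermatogenesis in the young testis rests on undifferentiated spermatogonia, which either renew themselves as stem cells or pass through a progenitor state on the way to c-Kit+ differentiating spermatogonia. PLZF, the protein of *Zbtb16*, is a zinc finger repressor that keeps the undifferentiated pool, and SALL4 is a zinc finger factor that binds PLZF and recruits the NuRD deacetylase complex. FOXO1 is a forkhead factor whose place in the nucleus is set by AKT signalling, SOX3 is a SoxB1 factor of progenitors, and NEUROG3 is a basic helix-loop-helix factor used as the classical label of cells primed to differentiate. NANOS3 is an RNA-binding protein that represses its target mRNAs. UPP1 is uridine phosphorylase, an enzyme of pyrimidine salvage, and UCHL1 (PGP9.5) is a ubiquitin hydrolase that is abundant in spermatogonia.

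Library totals lay between 32266861 and 45396233 counts. Levels are given as CPM, counts per 1000000 of a library after trimmed mean of M-values (TMM) scaling over the 12 libraries. The count of *Chd8* over the whole gene was 258 to 298 CPM in the Thy1+ mutants against 259 to 278 in their controls, and 297 to 316 against 263 to 305 in c-Kit+ cells; it includes exons outside the deleted part and does not check the genotype labels. *Thy1* was higher in all 6 Thy1+ libraries (11.7 to 17.1 CPM) than in all 6 c-Kit+ libraries (0.436 to 1.07 CPM), and *Kit* was higher in c-Kit+ libraries (626 to 782 CPM against 171 to 432 CPM). Other cell types were also measured: the summed level of 48 somatic marker genes was 12524 to 17371 CPM in Thy1+ controls, 14561 to 21911 in Thy1+ mutants, 3634 to 4944 in c-Kit+ controls and 7547 to 9230 in c-Kit+ mutants. The summed level of 8 germ cell genes (such as *Ddx4* and *Dazl*) was 1732 to 2598, 1272 to 2110, 2936 to 3478 and 2179 to 2491 CPM in the same order. In such bulk libraries, fewer cells of a type and less RNA per cell cannot be told apart, and the part of the cell makeup in each result below was not tested.

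The 8 genes differed widely in level when counts were put per length of exon (RPKM, here CPM per kilobase of exon). In Thy1+ controls *Uchl1* stood at 401 ± 89.7 RPKM (mean ± SD, n = 3), followed by *Zbtb16* at 42.9 ± 5.24, *Sox3* at 39.1 ± 7.65, *Sall4* at 34.0 ± 5.41 and *Foxo1* at 28.3 ± 1.74 RPKM. Neighbours among these last 4 overlapped between libraries and are not ordered by these data. *Nanos3* (8.45 ± 2.09 RPKM), *Upp1* (5.13 ± 0.681) and *Neurog3* (4.68 ± 1.36) formed a low group, in which *Upp1* and *Neurog3* overlapped. In c-Kit+ controls the order was *Uchl1* (634 ± 57.8 RPKM), *Sox3* (58.1 ± 8.78), *Sall4* (30.1 ± 2.77), *Foxo1* (24.4 ± 0.679) and *Zbtb16* (21.2 ± 0.913), with no overlap between neighbours. *Neurog3* (3.63 ± 1.14), *Upp1* (2.18 ± 0.160) and *Nanos3* (2.12 ± 0.267) came last and overlapped as neighbours. *Zbtb16* thus went from the second place in Thy1+ controls to the fifth in c-Kit+ controls. In the mutants *Uchl1* again led, at 341 ± 96.8 RPKM in Thy1+ and 582 ± 32.1 in c-Kit+ cells, and *Upp1* had the lowest mean in both populations, at 2.30 ± 0.710 and 1.42 ± 0.297 RPKM, though in c-Kit+ mutants it overlapped *Nanos3*. In c-Kit+ mutants *Neurog3* (5.99 ± 1.10 RPKM) lay above *Nanos3* (1.76 ± 0.696) without overlap.

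The spread within a group also differed between the populations. The median coefficient of variation over the 8 genes was 17.7% in Thy1+ controls and 25.0% in Thy1+ mutants, against 9.16% and 6.23% in c-Kit+ controls and mutants. Over all 18002 genes tested in the fit of 12 libraries it was 15.3%, 16.1%, 11.4% and 8.75%.

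**Figure D1:**
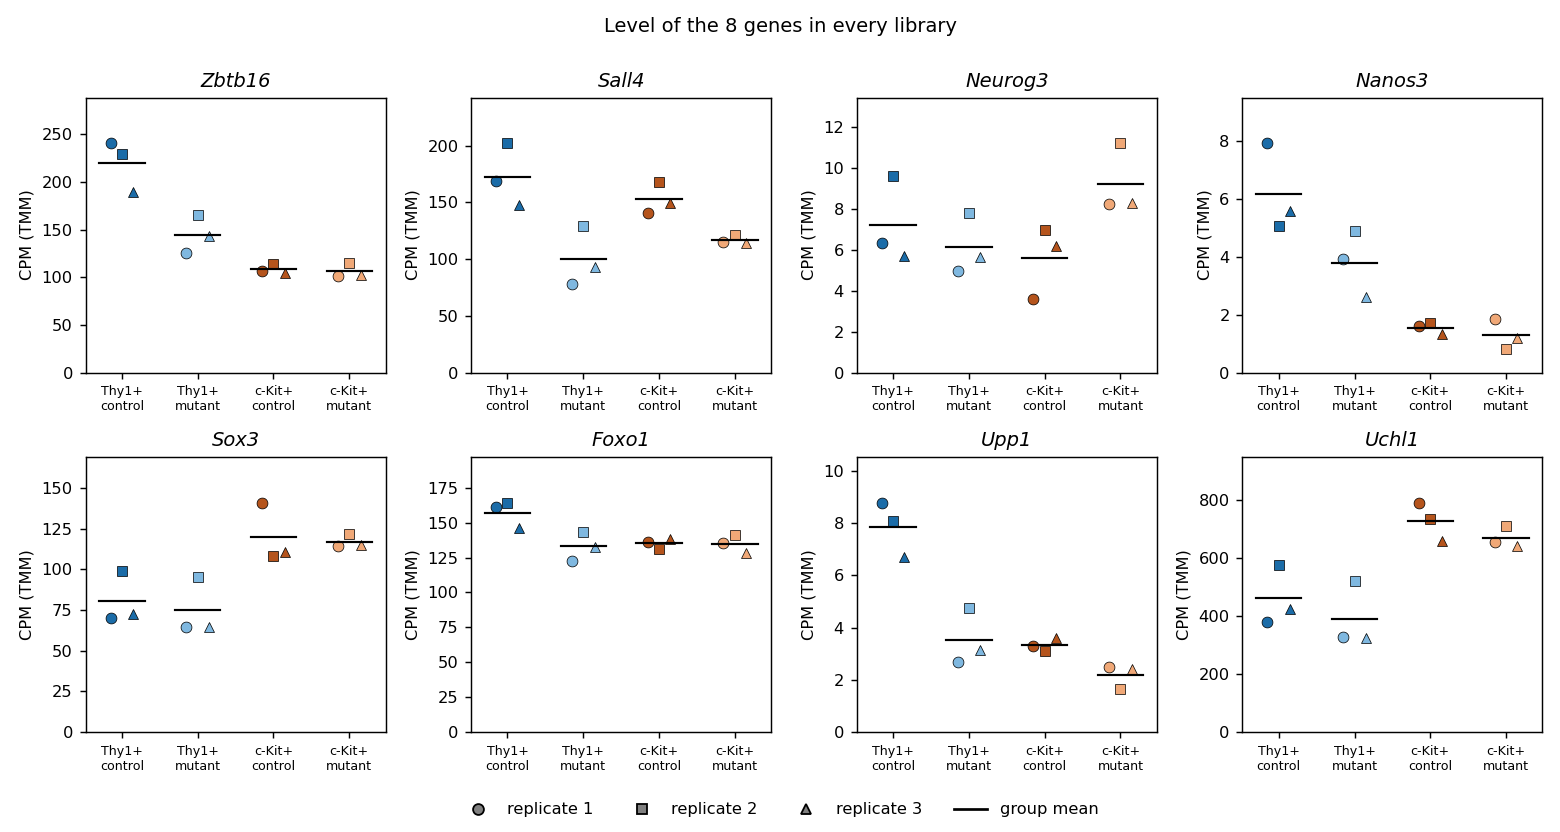
CPM of the 8 genes in each of the 12 libraries (points; 1 panel a gene, with vertical axes that start at 0) by group, with circles, squares and triangles for replicates 1, 2 and 3 and the horizontal bar at the group mean. *Zbtb16*, *Nanos3* and *Upp1* stand higher in the Thy1+ controls than in any c-Kit+ library, whereas *Sox3* and *Uchl1* stand lower in Thy1+ than in c-Kit+ controls.

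The control libraries show how the 8 genes differ between the Thy1+ and c-Kit+ sorted fractions, which also differed in their somatic marker levels. *Zbtb16*, *Nanos3* and *Upp1* were higher in Thy1+ controls, *Sox3* and *Uchl1* were lower, and *Sall4*, *Neurog3* and *Foxo1* were not called. A gene was called at a Benjamini-Hochberg adjusted p (FDR) under 0.05 in edgeR's quasi-likelihood test and an absolute log2 fold change over 0.5. The 3 genes called higher and 2 called lower compare with 20.7% and 7.08% of 17350 genes tested in these directions. Without overlap between the groups were 4 members higher in Thy1+ cells (29.5% of all genes) and 2 lower (24.8%).

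Among the factors of the undifferentiated state, *Zbtb16* (chr9:48654297-48835945, minus strand, 7 exons, mm10) measured 240, 229 and 189 CPM in the Thy1+ controls and 107, 114 and 105 CPM in the c-Kit+ controls (replicates 1, 2 and 3 here and below). All Thy1+ controls lay above all c-Kit+ controls, and the log2 fold change was 1.04 ± 0.11 (± SE here and below; FDR = 0.000173). The RNA-binding gene *Nanos3* (chr8:84173733-84176552, minus strand, 2 exons) measured 7.90, 5.04 and 5.55 CPM against 1.60, 1.72 and 1.34 CPM. This was the largest fold difference of the 8 genes between control populations, at a log2 value of 2.02 ± 0.26 (FDR = 0.000563), from counts of 186 to 353 against 46 to 60. The salvage enzyme gene *Upp1* (chr11:9118008-9136170, plus strand, 10 exons) measured 8.77, 8.08 and 6.72 CPM against 3.29, 3.12 and 3.60 CPM. Its log2 fold change was 1.26 ± 0.19 (FDR = 0.00143), again with no overlap.

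*Sox3* (chrX:60891366-60893430, minus strand, a single exon) measured 70.4, 98.9 and 72.9 CPM in Thy1+ controls and 141, 108 and 111 CPM in c-Kit+ controls, a log2 fold change of −0.55 ± 0.15 (FDR = 0.0237). Its closest libraries, at 98.9 and 108 CPM, differed little, and the call was lost without Thy1+ control replicate 1 (−0.48), Thy1+ control replicate 3 (−0.52, FDR = 0.0706) or c-Kit+ control replicate 1 (−0.44, FDR = 0.0710). *Uchl1* (chr5:66676121-66687234, plus strand, 9 exons) measured 380, 576 and 424 CPM against 788, 735 and 657 CPM, with a log2 fold change of −0.64 ± 0.15 (FDR = 0.0125) and no overlap. *Foxo1* (chr3:52268337-52350109, plus strand, 3 exons) measured 161, 164 and 146 CPM against 136, 131 and 138.5 CPM. Its Thy1+ controls were all higher, but by a log2 value of 0.24 ± 0.08 (FDR = 0.0456), under the minimum fold. *Sall4* (chr2:168748332-168767201, minus strand, 4 exons) measured 168, 202 and 147 CPM against 141, 168 and 149 CPM, and *Neurog3* (chr10:62133090-62134763, plus strand, 2 exons) 6.33, 9.60 and 5.69 CPM against 3.61, 6.95 and 6.19 CPM. The groups overlapped for both, with log2 fold changes of 0.20 (95% confidence interval −0.08 to 0.49) and 0.39 (−0.27 to 1.06). Of the 8 germ cell genes 4 were lower in Thy1+ than in c-Kit+ controls, and of 47 somatic genes 19 were higher and 9 lower. Scaling the libraries on the germ cell genes moved the median of all genes from 0.03 to 0.63 on the log2 scale, above the minimum fold. It called 7864 of 17350 genes in either direction. Under that scaling *Zbtb16* (1.65), *Nanos3* (2.66) and *Upp1* (1.86) kept their calls, *Sall4* (0.78), *Neurog3* (0.96) and *Foxo1* (0.83) passed as higher, *Sox3* turned to 0.01, and *Uchl1* (−0.08) lost its call.

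**Figure D2:**
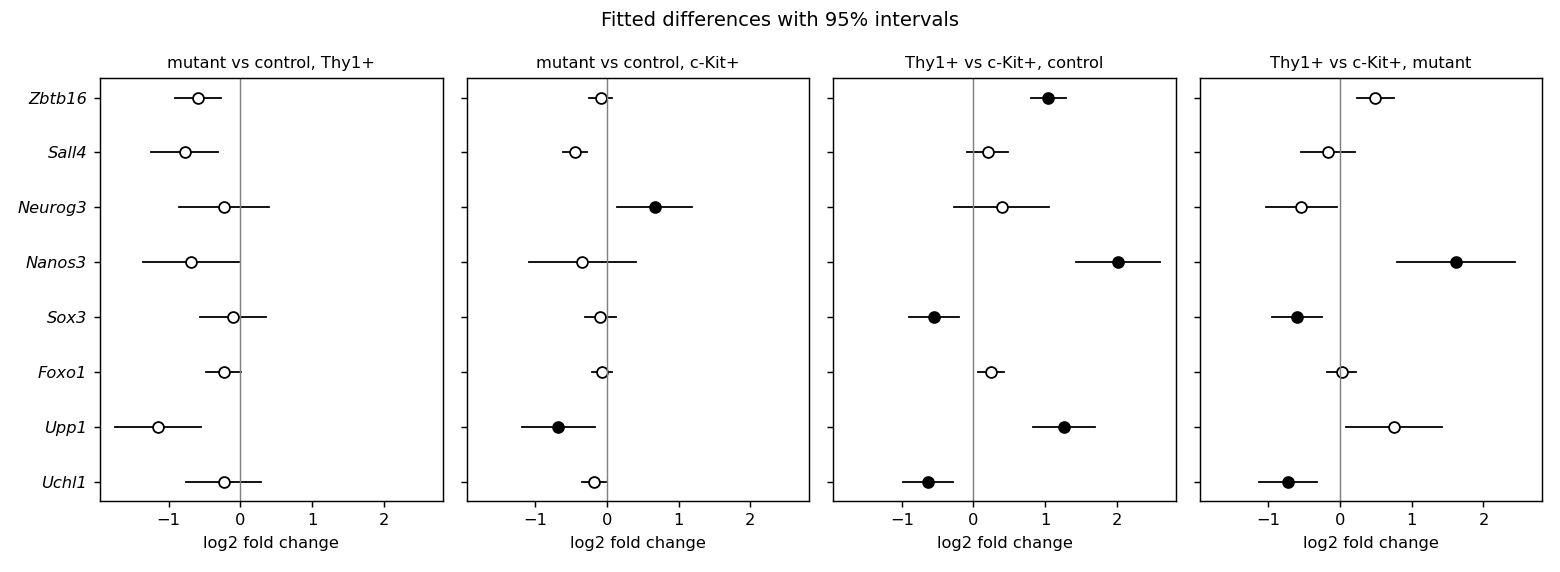
Log2 fold change of each gene with its 95% confidence interval in the 4 comparisons within genotype or population; filled points passed both thresholds. No gene passed in the Thy1+ genotype comparison without the replicate block, and *Neurog3* and *Upp1* passed in opposite directions in c-Kit+ cells.

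In Thy1+ cells the comparison of mutant with control asks how the undifferentiated program responds to loss of *Chd8*. All 8 genes had lower fitted levels in the mutants, and 5 of them (*Zbtb16*, *Sall4*, *Nanos3*, *Foxo1* and *Upp1*) were lower in every mutant library than in every control library, against 10.7% of all genes tested. In the unpaired fit of edgeR's quasi-likelihood test 0 of 8 were called, as were 0% of 17416 genes, with 4 of 8 at an unadjusted p under 0.05 (12.4% of all genes). The exact test and DESeq2 each called 3 of the 8 (*Zbtb16*, *Sall4* and *Upp1*), against 1.83% and 2.17% of all genes. The labels state no shared litter or day, and pairing by replicate number rests on correlated deviations of same-numbered libraries in these counts. With that number as a block 4 of 8 were called lower (*Zbtb16*, *Sall4*, *Nanos3* and *Upp1*), against 4.92% of all genes tested in that direction. The median log2 fold change of the 8 genes was −0.41, against 0.02 over all genes. The 8 germ cell genes also all had fitted values below 0 in this comparison, with a median of −0.39.

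*Sall4* measured 168, 202 and 147 CPM in controls and 78.3, 129 and 93.3 CPM in mutants. Each mutant library lay below each control library, and the log2 fold change was −0.78 ± 0.20 (edgeR FDR = 0.261), or −0.79 ± 0.07 with the block (FDR = 3.2e-06). *Zbtb16* measured 240, 229 and 189 CPM in controls and 125, 165 and 144 CPM in mutants, with −0.59 ± 0.14 (FDR = 0.232) and −0.60 ± 0.08 with the block (FDR = 4.3e-05). The lowest control library of *Zbtb16*, at 189 CPM, was above the highest mutant library. *Upp1* measured 8.77, 8.08 and 6.72 CPM in controls and 2.69, 4.76 and 3.14 CPM in mutants, and with −1.14 ± 0.26 (FDR = 0.222; −1.17 ± 0.19 and FDR = 0.000322 with the block) it had the largest difference of the 8 genes in this comparison. Its control level was 2.21 times the mutant level. The mutant Thy1+ libraries thus spanned 2.69 to 4.76 CPM for *Upp1*, a range that took in the 3.12 to 3.60 CPM of the c-Kit+ controls.

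*Nanos3* measured 7.90, 5.04 and 5.55 CPM in controls against 3.91, 4.87 and 2.59 CPM in mutants. The groups did not overlap, but replicate 2 differed by only −0.05 on the log2 scale while replicates 1 and 3 differed by −1.01 and −1.10. Its log2 fold change was −0.69 ± 0.29 (FDR = 0.399), and −0.70 ± 0.21 with the block (FDR = 0.0210). *Foxo1* measured 161, 164 and 146 CPM against 123, 144 and 133 CPM, a log2 fold change of −0.23 ± 0.10 (FDR = 0.410; with the block FDR = 0.00611, under the minimum fold). *Uchl1* measured 380, 576 and 424 CPM against 328, 519 and 325 CPM, with overlapping groups and −0.23 ± 0.23 (FDR = 0.670). Each mutant library of *Uchl1* was nevertheless below the control of the same number, and the block gave −0.24 ± 0.05 (FDR = 0.00273), again under the minimum fold. *Sox3* (70.4, 98.9 and 72.9 against 64.6, 95.2 and 64.8 CPM) and *Neurog3* (6.33, 9.60 and 5.69 against 4.97, 7.78 and 5.64 CPM) overlapped between genotypes. Their intervals in the unpaired fit were −0.56 to 0.36 and −0.86 to 0.40. With the block they were at −0.11 ± 0.06 (FDR = 0.191) and −0.22 ± 0.16 (FDR = 0.317), and neither was called.

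With 1 replicate number left out at a time, the fit with the block called *Sall4* (−0.65 to −0.90) and *Upp1* (−0.91 to −1.42) in each case. Such fits leave few libraries to estimate the spread from. The FDR of *Sall4* was 6.8e-17 without replicate 1, smaller than the 3.2e-06 with all libraries. The fits therefore check the size of a change, and their FDR values are weak. *Zbtb16* fell under the minimum fold without replicate 1 (−0.43), and *Nanos3* was not called without replicate 1 (−0.54, FDR = 0.0891) or replicate 3 (−0.54, FDR = 0.111). Replicate 1 had the highest summed level of 10 Sertoli cell genes in both Thy1+ groups, 2296 CPM in the control and 3004 CPM in the mutant, against 529 to 1119 CPM in the other 4 Thy1+ libraries. Of 47 somatic marker genes tested, 14 were higher and 0 lower in Thy1+ mutants with the block, and 2 of the 8 germ cell genes were lower. Scaled on the germ cell genes, which moved the median of all genes from 0.02 to 0.44 on the log2 scale, *Sall4* (−0.40), *Zbtb16* (−0.21), *Nanos3* (−0.37) and *Upp1* (−0.81) stayed below 0, and *Neurog3* (0.18), *Sox3* (0.29), *Foxo1* (0.17) and *Uchl1* (0.16) turned above it. With the block and that scaling, only *Upp1* of the 8 was called, at −0.78 (FDR = 0.000169), and *Sall4* (−0.40 ± 0.09, FDR = 3.1e-05) was under the minimum fold. Over all genes, 6181 of 17416 were called in that fit.

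**Figure D3:**
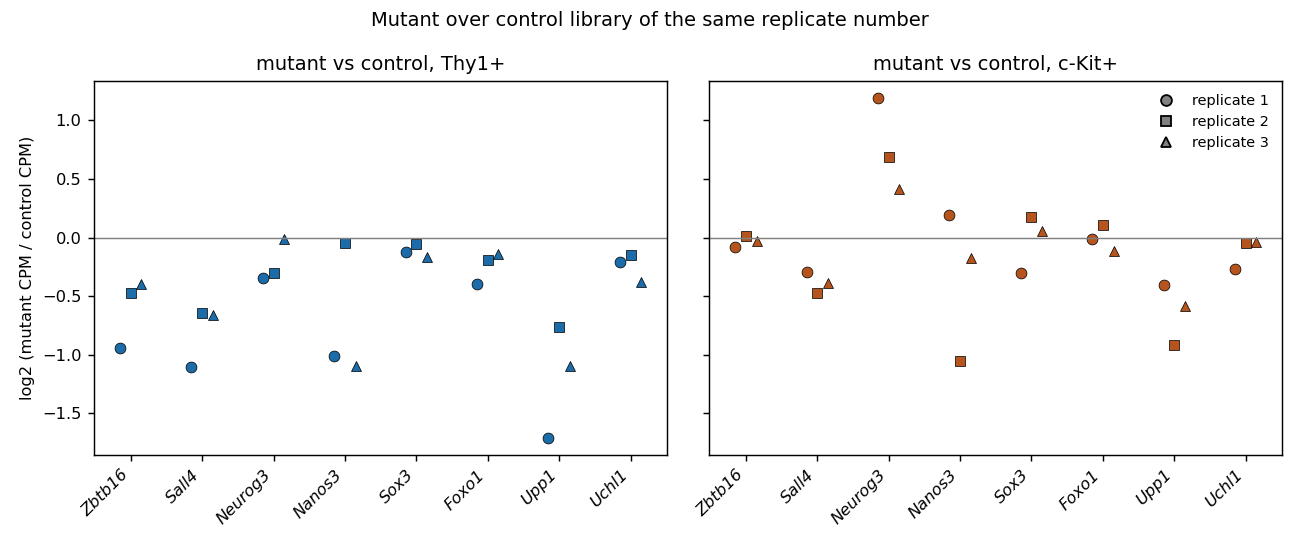
Log2 ratio of mutant to control CPM for libraries that share a replicate number (circle, replicate 1; square, 2; triangle, 3), in Thy1+ cells on the left and c-Kit+ cells on the right. All 24 ratios in Thy1+ cells are below 0, and in c-Kit+ cells the 3 ratios of *Neurog3* are above 0 and those of *Sall4* and *Upp1* below it.

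In c-Kit+ cells the genotype comparison covers cells that have entered differentiation. Here *Neurog3* was higher and *Upp1* was lower in the mutants, and the other 6 genes were not called. The 1 gene called higher and the 1 called lower stand against 14.8% and 7.41% of 17134 genes tested, so that their number is near the share over all genes. *Neurog3* was the member without overlap upwards (31.6% of all genes), and *Sall4* and *Upp1* were those without overlap downwards (20.6%). The median log2 fold change of the 8 genes was −0.14, against 0.01 over all genes.

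The genomic sequence upstream of both called genes is shown because they changed in opposite directions in the same libraries. Each run gives the 250 bases before the start of the gene, on the plus strand of GRCm38.p6 (the assembly of mm10), from RefSeq. The windows are chr10:62132840-62133089 for *Neurog3* and chr11:9117758-9118007 for *Upp1*. Capitals mark every match, on either strand, to 6 searched motifs. They are the E-box CANNTG, the CCAAT box (which reads ATTGG on the other strand), the GC box GGGCGG, the TATA box TATAAA, the nuclear receptor half-site AGGTCA, and TGACGTCA, the cyclic AMP response element. No matches overlap in these runs.
Neurog3: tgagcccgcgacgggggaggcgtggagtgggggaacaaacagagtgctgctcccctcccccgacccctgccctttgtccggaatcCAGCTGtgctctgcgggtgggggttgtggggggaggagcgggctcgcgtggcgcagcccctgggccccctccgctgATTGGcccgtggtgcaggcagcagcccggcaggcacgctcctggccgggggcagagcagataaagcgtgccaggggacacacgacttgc
Upp1: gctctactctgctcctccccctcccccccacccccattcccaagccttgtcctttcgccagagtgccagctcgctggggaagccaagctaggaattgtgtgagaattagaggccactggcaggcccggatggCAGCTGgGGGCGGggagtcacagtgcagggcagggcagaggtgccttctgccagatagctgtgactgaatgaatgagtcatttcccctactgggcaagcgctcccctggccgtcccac

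Both windows hold 1 E-box of the same letters (CAGCTG), and 66.2% of 32851 mouse promoter windows of this length hold an E-box. *Neurog3* has in addition 1 CCAAT match (33.8% of windows) and *Upp1* 1 GGGCGG match (32.7%), and neither holds TATAAA (12.4%), AGGTCA (14.0%) or TGACGTCA (1.55%). The *Neurog3* window is 71.2% G and C with 18 CpG dinucleotides and that of *Upp1* is 62.4% with 6, against medians of 52.4% and 6. *Upp1* also has entries with other starts, which are not shown. The window chr11:9117853-9118102 is 55.6% G and C with 6 CpG. The window chr11:9118257-9118506 is 52.8% with 10 CpG, and it holds 2 E-boxes and no GGGCGG. Promoter entries were found for 5 of the 8 genes, which also include *Foxo1*, *Uchl1* and *Nanos3*. A match is a description of the letters and not a site.

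*Neurog3* measured 3.61, 6.95 and 6.19 CPM in c-Kit+ controls and 8.24, 11.2 and 8.25 CPM in c-Kit+ mutants, from counts of 124 to 243 and 279 to 459. Every mutant library was above every control library, at a log2 fold change of 0.67 ± 0.24 (95% confidence interval 0.14 to 1.19; edgeR FDR = 0.0461). The mutant level was 1.59 times the control level and overlapped the 5.69 to 9.60 CPM of the Thy1+ controls. *Upp1* measured 3.29, 3.12 and 3.60 CPM in controls and 2.48, 1.66 and 2.40 CPM in mutants, from counts of 109 to 124 and 68 to 84, with a log2 fold change of −0.68 ± 0.23 (−1.18 to −0.17; FDR = 0.0378). These are the lowest counts of the 8 genes after *Nanos3*.

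Both calls were close to the threshold. In the unpaired fit *Neurog3* was called without c-Kit+ control replicate 2 (0.85, FDR = 0.0217) but not without control replicate 1 (0.43, FDR = 0.0896), control replicate 3 (0.75, FDR = 0.0721), mutant replicate 1 (0.74, FDR = 0.0709), mutant replicate 2 (0.50, FDR = 0.170) or mutant replicate 3 (0.74, FDR = 0.0733). *Upp1* was not called when any 1 of the 6 libraries was left out (−0.51 to −0.78, FDR = 0.0507 to 0.118). In 1 fit of all 12 libraries neither passed (*Neurog3* 0.72, FDR = 0.0727; *Upp1* −0.62, FDR = 0.0807). With the block both were called (*Neurog3* 0.69, FDR = 0.00968; *Upp1* −0.69, FDR = 0.0278), but *Neurog3* fell under the minimum fold without replicate 1 (0.48), and *Upp1* was not called without replicate 2 (−0.56, FDR = 0.133) or replicate 3 (−0.72, FDR = 0.103).

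*Sall4* measured 141, 168 and 149 CPM in controls and 115, 121 and 114 CPM in mutants. It had the lowest FDR of the 8 genes here (0.00136), with no overlap and a log2 fold change of −0.45 ± 0.08 that lay just under the minimum fold. It passed as lower without c-Kit+ control replicate 1 (−0.51, FDR = 0.000502). With the block it also passed without replicate 1 (−0.50), in a fit with few libraries to estimate the spread from. *Zbtb16*, whose protein binds SALL4, measured 107, 114 and 105 CPM against 101, 115 and 102 CPM, with overlapping groups and a log2 interval of −0.25 to 0.07. *Nanos3* was at 1.60, 1.72 and 1.34 CPM against 1.83, 0.83 and 1.19 CPM, and its wide interval (−1.09 to 0.41) leaves its direction unresolved. *Sox3* (141, 108 and 111 against 114, 122 and 115 CPM) and *Foxo1* (136, 131 and 138.5 against 135, 141 and 128 CPM) differed by less than the spread between libraries. *Uchl1* measured 788, 735 and 657 CPM against 654, 710 and 640 CPM, with overlapping groups and −0.18 ± 0.07 (FDR = 0.0756).

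The c-Kit+ mutants also differed from their controls in cell type markers. Of 47 somatic marker genes tested, 35 were higher and 0 lower in the mutants, with a median log2 fold change of 0.95, and their summed level did not overlap between the groups. Called higher were 9 of 10 Sertoli, 5 of 8 Leydig, 3 of 5 peritubular myoid, 7 of 7 stromal, 6 of 6 endothelial, 1 of 6 macrophage and 4 of 5 mast cell genes. None of the somatic genes was at 0 in all 3 libraries of a c-Kit+ group. Of the 8 germ cell genes 3 were lower, and the median was −0.37. All 8 had fitted values below 0, but they did not move alike. From controls to mutants the mean of *Elavl2* went from 87.4 to 44.4 CPM, and that of *Ddx4* from 412 to 367 CPM. A scaling on these genes is therefore not neutral to genotype. Scaling on the germ cell genes called 7326 of 17134 genes. It moved the median of all genes from 0.01 to 0.47 on the log2 scale. Relative to the germ cell genes *Neurog3* was at 1.14 ± 0.22 (FDR = 0.000746) and remained called. *Upp1* was at −0.21 and lost its call. *Zbtb16* (0.38), *Sall4* (0.02), *Nanos3* (0.13), *Sox3* (0.36), *Foxo1* (0.39) and *Uchl1* (0.28) turned above 0. Expressed per 1000 CPM of germ cell genes, *Neurog3* was 1.22 to 2.11 in c-Kit+ controls and 3.46 to 4.49 in c-Kit+ mutants, beside 3.01 to 3.70 in Thy1+ controls and 3.69 to 4.14 in Thy1+ mutants. The c-Kit+ controls were thus the low group for *Neurog3* on this scale, without overlap with any other group.

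**Figure D4:**
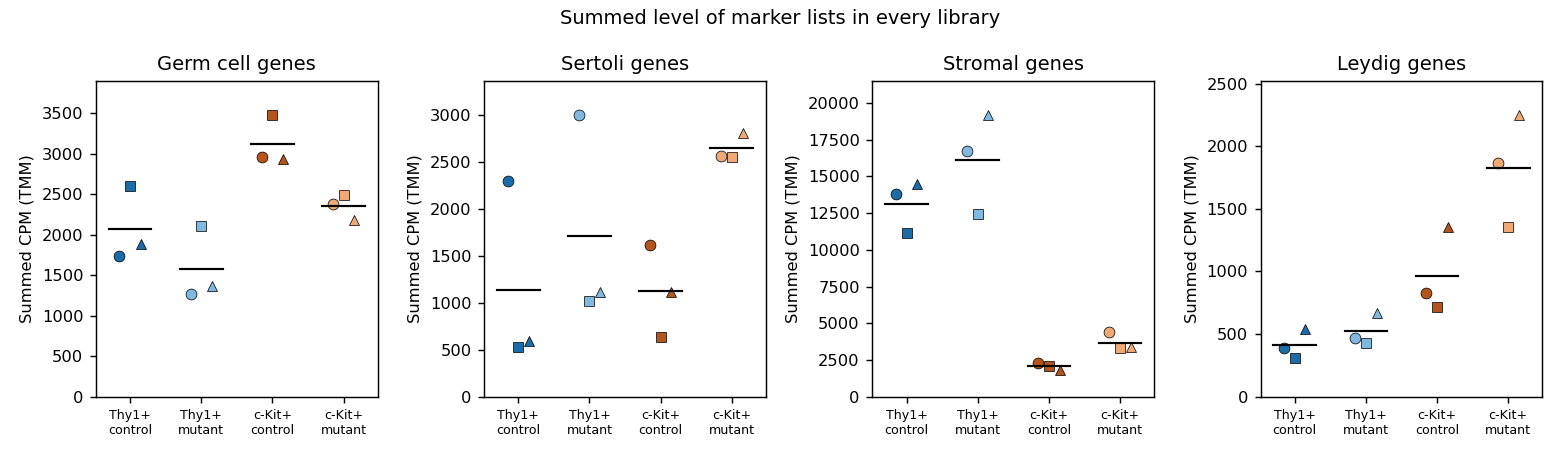
Summed CPM of 4 marker lists in each library by group, with the bar at the mean and the replicate numbers as shapes (circle, 1; square, 2; triangle, 3). Germ cell sums are lower and Sertoli, stromal and Leydig sums higher in all c-Kit+ mutants than in all c-Kit+ controls, and replicate 1 has the highest Sertoli sum of both Thy1+ groups.

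**Figure D5:**
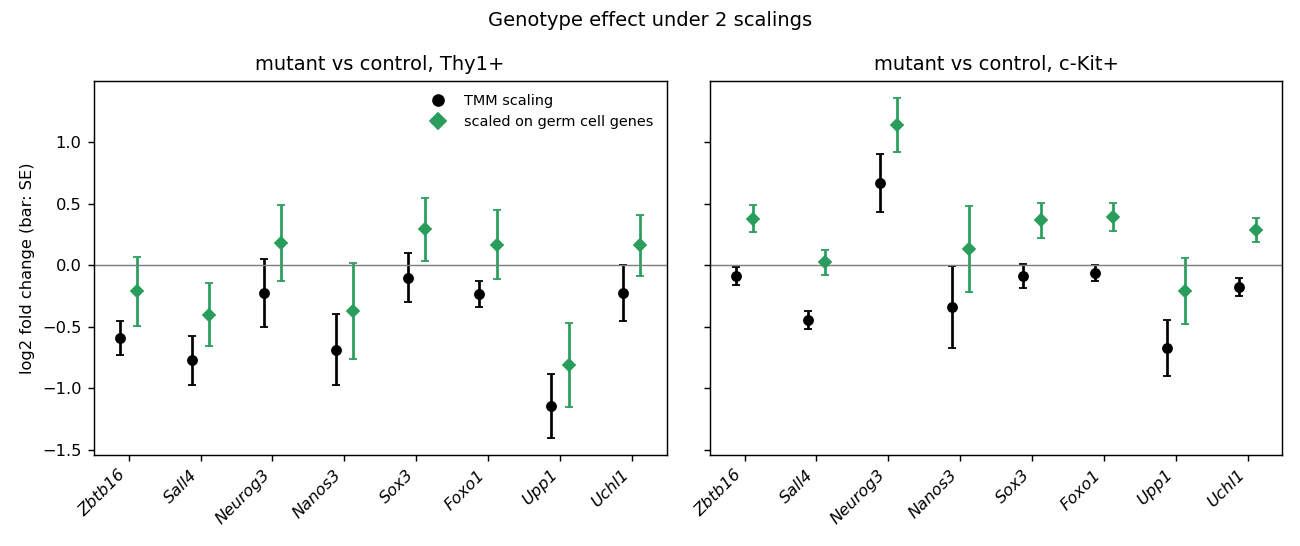
Log2 fold change of mutant against control (points; bars are 1 SE, n = 3 libraries a group) under TMM scaling and under scaling on the 8 germ cell genes. The second scaling lifts every gene, which turns 4 genes above 0 in Thy1+ cells and 6 in c-Kit+ cells and leaves *Upp1* as a gene below 0 in both.

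In the mutants, the difference between populations was tested in the same way. *Nanos3* was higher in Thy1+ mutants (1.62 ± 0.36, FDR = 0.0123), and *Sox3* (−0.60 ± 0.15, FDR = 0.0210) and *Uchl1* (−0.73 ± 0.18, FDR = 0.0171) were lower, so that 1 gene was called higher and 2 lower against 15.3% and 5.03% of 17346 genes tested. Without overlap were 3 genes in each direction (23.3% of all genes higher, 26.7% lower). *Zbtb16* was at 125, 165 and 144 CPM in Thy1+ and 101, 115 and 102 CPM in c-Kit+ mutants. Its log2 fold change of 0.49 ± 0.11 (FDR = 0.0153) was just under the minimum, beside 1.04 in the controls. For *Upp1* the value was 0.75 ± 0.29 (FDR = 0.0899), beside 1.26 in the controls. *Neurog3* had 4.97, 7.78 and 5.64 CPM in Thy1+ and 8.24, 11.2 and 8.25 CPM in c-Kit+ mutants, a log2 fold change of −0.54 ± 0.22 (FDR = 0.0929), beside 0.39 in the controls. *Sall4* (−0.17 ± 0.17) and *Foxo1* (0.02 ± 0.09) overlapped between the populations. The comparisons within genotype and within population share libraries, and the interaction tests whether these values differ from those in controls.

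These calls moved with single libraries. When c-Kit+ mutant replicate 3 was left out, *Nanos3* (1.56, FDR = 0.0555), *Sox3* (−0.63, FDR = 0.0649) and *Uchl1* (−0.77, FDR = 0.0518) were all past the FDR limit. *Sox3* also lost its call without Thy1+ mutant replicate 1 (−0.49) or 3 (−0.50, FDR = 0.0914) and without c-Kit+ mutant replicate 1 (−0.63, FDR = 0.0581) or 2 (−0.58, FDR = 0.0749), and *Uchl1* without Thy1+ mutant replicate 3 (−0.60, FDR = 0.0735) or c-Kit+ mutant replicate 2 (−0.69, FDR = 0.0632). *Zbtb16* passed both thresholds without Thy1+ mutant replicate 1 (0.60) or c-Kit+ mutant replicate 2 (0.55), and *Neurog3* without Thy1+ mutant replicate 2 (−0.75). Scaling on the germ cell genes moved the median of all genes from −0.03 to 0.56, above the minimum fold. It called 5319 of 17346 genes in either direction. *Zbtb16* (1.06), *Nanos3* (2.15) and *Upp1* (1.25) were then called higher. *Sall4* turned to 0.36, *Neurog3* was at −0.0012, and *Sox3* (−0.06) and *Uchl1* (−0.20) lost their calls.

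The difference between the genotype effects, c-Kit+ minus Thy1+, was tested as an interaction in the fit of all 12 libraries. None of the 8 genes passed in edgeR's quasi-likelihood test (0 of 18002 genes, 0%), and 2 of 8 had an unadjusted p under 0.05 (10% of all genes). With the replicate block 1 of 8 was called (*Zbtb16*, 0.57 ± 0.13, FDR = 0.0383), against 2.48% of all genes. DESeq2 called 64 genes, of which 0 were among the 8. *Neurog3* had the largest value, 0.95 ± 0.39 (95% confidence interval 0.11 to 1.80, FDR = 0.451): its mutant libraries differed from the controls of the same number by −0.35, −0.30 and −0.01 in Thy1+ cells and by 1.19, 0.68 and 0.42 in c-Kit+ cells on the log2 scale. *Zbtb16* had the lowest p of the 8, with 0.57 ± 0.16 (0.23 to 0.91, FDR = 0.386), its unpaired fitted change being −0.59 in Thy1+ and −0.09 in c-Kit+ cells. The fitted values of the 8 genes were all above 0, with a median of 0.40 against 0.08 over all genes. That median was 0.75 over 25 other genes of the stem and undifferentiated state and 0.60 over 47 somatic marker genes. Over 14 differentiation genes it was −0.11, and over the 8 germ cell genes −0.00035. For *Sall4* (0.39, −0.10 to 0.88), *Upp1* (0.53, −0.20 to 1.26) and *Nanos3* (0.41, −0.55 to 1.38) the intervals include 0, and they do not show that both populations responded alike.

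The other genes of the stem and undifferentiated state, a list of 26 that holds none of the 8, give the setting. In the control populations 17 of 25 tested were higher and 2 lower in Thy1+ cells (median 1.81), led by *Gfra1* (4.18 ± 0.22), the receptor for the niche factor GDNF, and by *T* (4.17 ± 0.38), *Foxc2* (4.05 ± 0.31) and *Lhx1* (3.86 ± 0.28), which encode transcription factors of stem cells. The median of the 8 progenitor genes, which went in both directions, was 0.32 there. In Thy1+ mutants 13 of 26 were lower and 0 higher with the block (0 in either direction without it in edgeR's quasi-likelihood test, with 13 at an unadjusted p under 0.05; median −0.60), among them *T* (−1.71), *Plvap* (−1.61), *Pou5f1* (−1.58) and *Eomes* (−1.27). In c-Kit+ mutants 2 of 24 were higher and 4 lower, led by *Etv5* (1.08 ± 0.14, FDR = 0.000413), a GDNF-responsive factor, *Lin28a* (−0.995 ± 0.07, FDR = 7.6e-05), which encodes a let-7 inhibitor, *Pou5f1* (−0.93 ± 0.28, FDR = 0.0225) and *Shisa6* (0.71 ± 0.24, FDR = 0.0394). In the mutant populations 13 of 25 were higher and 1 lower in Thy1+ cells. Over all genes, the shares called higher and lower in Thy1+ cells were 20.7% and 7.08% between control and 15.3% and 5.03% between mutant populations. In c-Kit+ mutants they were 14.8% and 7.41%, and 4.92% were lower in Thy1+ mutants with the block. The same shares stand beside the counts of the differentiation and paralog lists below.

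Among 14 genes of differentiation and meiotic entry, those called were lower in the mutants of both populations. In c-Kit+ mutants 6 of 14 were lower and 0 higher (median −0.41), with *Prdm9* (−2.66 ± 0.24, FDR = 0.000144), which marks meiotic recombination sites, *Tex101* (−1.96 ± 0.17), the recombinase gene *Dmc1* (−1.72 ± 0.17) and *Sycp3* (−1.36 ± 0.13) of the synaptonemal complex in front. In Thy1+ mutants 5 were lower with the block and 0 without it (4 at an unadjusted p under 0.05 in edgeR's test; median −0.32), again led by *Prdm9* (−1.77) and *Tex101* (−1.21). Between the control populations 9 of 14 were lower and 1 higher in Thy1+ cells, with *Kit* at −1.19 ± 0.25, *Stra8*, the gatekeeper of meiotic entry, at −1.16 ± 0.27 and the cyclin gene *Ccnd2* at 1.25 ± 0.09. *Prdm9* differed more in mean level, at 26.0 CPM in Thy1+ controls (9.69 to 35.2) and 74.6 CPM in c-Kit+ controls (48.7 to 99.0). Between the mutant populations 6 of 14 were lower and 1 higher in Thy1+ cells.

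Close relatives of the 8 genes did not move as 1 group. Of 17 paralogs, 14 were tested in the genotype comparisons. In c-Kit+ mutants *Sall2* was higher (0.89 ± 0.15, FDR = 0.0013) and *Zbtb32* lower (−0.51 ± 0.08, FDR = 0.000903), while 4 were lower in Thy1+ mutants with the block, namely *Nanos2* (−0.82), *Sall1* (−0.79), *Sall3* (−0.75) and *Zbtb32* (−0.58). Without the block edgeR's test called 0 there, with 4 at an unadjusted p under 0.05. Between the control populations 6 were higher and 3 lower in Thy1+ cells, led by *Sall3* (3.13 ± 0.36), *Sall2* (1.34 ± 0.19), *Sall1* (0.70 ± 0.14) and *Nanos1* (−0.68 ± 0.18), and between the mutant populations 4 were higher and 3 lower. *Sall1*, *Sall2* and *Sall3* were thus all higher in Thy1+ controls, where *Sall4* itself was not called.

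The AKT and mTOR pathway sets the place of FOXO1 in the cell, and SALL4 recruits the NuRD complex. Of 10 genes of the pathway, 1 was called higher and 1 lower in c-Kit+ mutants, beside the 14.8% and 7.41% of all genes: *Ddit4*, an mTORC1 inhibitor also known as REDD1, was higher in c-Kit+ mutants (1.15 ± 0.21, FDR = 0.00191) and *Pdpk1*, the kinase that activates AKT, was lower (−0.67 ± 0.12, FDR = 0.00162). *Ddit4* was also higher in Thy1+ than in c-Kit+ controls (1.42 ± 0.32), *Mtor* was lower in Thy1+ than in c-Kit+ mutants (−0.51 ± 0.14), and edgeR's test called 0 of 10 in Thy1+ mutants with or without the block (3 at an unadjusted p under 0.05 without it). Of 12 NuRD subunit genes, 0 were called in any of the 4 comparisons within genotype or population, with or without the block, by edgeR's quasi-likelihood test. At an unadjusted p under 0.05 there were 2 in Thy1+ mutants and 6 in c-Kit+ mutants, and at FDR alone, without the minimum fold, 4 passed in c-Kit+ mutants. Over all genes, 12.4% had an unadjusted p under 0.05 in Thy1+ mutants. In c-Kit+ mutants 8191 of 17134 genes did so, and 6710 passed at FDR alone. The NuRD counts in c-Kit+ mutants are thus near the share over all genes. Of the 10 AKT and mTOR genes, 8 passed at FDR alone in c-Kit+ mutants. At an unadjusted p under 0.05 in edgeR's test, 3 were higher and 5 lower.

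The 8 genes fell into different patterns over the 12 libraries, described here by Pearson's r of log2 CPM, which the sorting and the libraries themselves shape. *Sox3* and *Uchl1* ran together (r = 0.978, n = 12), and within the Thy1+ libraries their deviations from the group means also did (r = 0.994, n = 6). *Zbtb16* ran with *Upp1* (r = 0.891), *Nanos3* (r = 0.882) and *Foxo1* (r = 0.819), and *Sall4* was closest to *Foxo1* (r = 0.761). For deviations from the group means, *Zbtb16* had r of 0.931, 0.402 and 0.977 with *Upp1*, *Nanos3* and *Foxo1* within the Thy1+ libraries. Within the c-Kit+ libraries these were −0.958, −0.555 and 0.304 (n = 6). Over the 12 libraries *Neurog3* had no r above 0.298 with any other member. Within the Thy1+ libraries, however, its deviations ran with those of *Sox3* (r = 0.947), *Sall4* (0.936) and *Uchl1* (0.912), but not *Nanos3* (0.057). Within the c-Kit+ libraries r was 0.872 with *Sall4* and −0.761 with *Sox3* (n = 6). Among 13486 genes, those most alike included *Fgd5* (r = 0.982) for *Zbtb16*, *Arhgap44* (0.975) and *Plcg2* (0.975) for *Sall4*, *Bop1* (0.988) and *Dmrt1* (0.987) for *Sox3*, and *Ryr1* (0.946) and *Shroom3* (0.945) for *Foxo1*. They were *Foxf1* (0.959) and *Cdh4* (0.958) for *Nanos3*, *Ctdp1* (0.968) and *Ccdc114* (0.952) for *Upp1*, and *Crlf3* (0.994) and *Psme3* (0.993) for *Uchl1*. For *Neurog3* the closest genes reached only 0.875 (*Zfp987*) and 0.843 (*Zfp87*).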

How the data were processed

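The authors, per the labels, the study's methods and the file header, trimmed reads (paired-end, poly(A) RNA, directional kit) using Trimmomatic 0.39, aligned them to the mm10 genome using HISAT2 2.1.0, and assigned them to exons of RefSeq genes using featureCounts 2.0.3. What they deposited is 1 raw count for each gene and library, neither normalized nor pooled. The command names no strand and does not count read pairs, so overlapping genes could share reads; none of the 8 genes has an overlapping gene in the table. Total counts per library (32266861 to 45396233) exceed independent molecules, and libraries of a group differed by more than counting error (chi-square per degree of freedom 10.8 to 76.7).

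Counts were tested with edgeR 4.0.16 in R 4.3.3 (quasi-likelihood F test, TMM, filterByExpr, Benjamini-Hochberg adjustment over all genes tested; FDR under 0.05 and absolute log2 fold change over 0.5, or FDR alone for the interaction), with the 2 groups of a comparison, or all 12 libraries for the interaction. Standard errors are the log2 fold change divided by the square root of F. The tests were tried on simulated data beforehand. Alternatives were the exact test, DESeq2 1.42.0, other scalings and filters, a fit of all 12 libraries, the replicate number as a block and leaving out libraries. Same-numbered libraries deviated together over all genes tested, with r of 0.266 to 0.490 in the Thy1+ genotype comparison, 0.101 to 0.125 in the c-Kit+ genotype comparison and 0.134 to 0.298 between control populations, and every pair exceeded 0.1, the limit used to treat them as paired. Between mutant populations the lowest r was 0.0211, so they were not. The pairing comes from the numbers in the labels and this check; the labels state no shared litter or day.

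The 8 genes, the lists and the tests were chosen with earlier results of these data known. Of each list, up to 4 called genes with the largest absolute log2 fold change and a mean log2 CPM of at least 1 were named, and for each of the 8 genes the 2 genes with the highest Pearson's r of log2 CPM (prior count 2). The same rule was applied to the calls with the block in Thy1+ mutants, which was decided after seeing the data. Chromatin immunoprecipitation data were not used here. One gene that the rule on likeness names is not reported here.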

Additional observations from a re-analysis of the deposited data

Results flagged for a closer look

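*Neurog3* is given for a closer look because its libraries differed in opposite directions in the 2 populations under TMM scaling. All 3 Thy1+ mutant libraries were below the control of the same number (differences of −0.35, −0.30 and −0.01 on the log2 scale) and all 3 c-Kit+ mutant libraries above it (1.19, 0.68 and 0.42). The difference of the effects, c-Kit+ minus Thy1+, was 0.95 ± 0.39 (SE) and did not pass (edgeR's quasi-likelihood interaction, adjusted p = 0.451, and 0.0559 with the replicate block). The Thy1+ value was −0.23 (−0.86 to 0.40), and it turned to 0.18 under germ cell scaling, with or without the block, where the c-Kit+ value was 1.14, and to 0.046 without Thy1+ control replicate 2.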

How the results depend on the processing

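Of the 8 genes, the count called in the Thy1+ genotype comparison was 0 in the unpaired fit and 3 by the exact test, by DESeq2 and in the fit of all 12 libraries. With the replicate block it was 4, with the block and germ cell scaling 1, and over fits that left out libraries, with or without the block, 0 to 4. In the c-Kit+ comparison the count of 2 became 1 under germ cell scaling (with or without the block), 0 in the fit of 12 libraries and 0 to 2 when libraries were left out. Between mutant populations the count of 3 ranged from 0 to 4 when libraries were left out, and in the interaction the count of 0 became 1 (*Zbtb16*, 0.57, adjusted p = 0.0383) with the replicate block. Between control populations the 3 higher and 2 lower became 6 and 0 under germ cell scaling, and 1 was lower without Thy1+ control replicate 1 or 3 or c-Kit+ control replicate 1.

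Germ cell scaling turned the direction of *Neurog3* (0.18), *Sox3* (0.29), *Foxo1* (0.17) and *Uchl1* (0.16) in the Thy1+ genotype comparison, of *Zbtb16* (0.38), *Sall4* (0.022), *Nanos3* (0.13), *Sox3* (0.36), *Foxo1* (0.39) and *Uchl1* (0.28) in the c-Kit+ comparison, of *Sox3* between control populations (0.0098) and of *Sall4* between mutant populations (0.36). Together with the replicate block it gave 0.18, 0.29, 0.16 and 0.16 for the first list and 0.38, 0.021, 0.075, 0.38, 0.40 and 0.29 for the second. *Foxo1* between mutant populations turned to −0.059 with library size alone and −0.018 in the fit of 12 libraries, and *Sox3* in the interaction to −0.0038 with DESeq2 and −0.0041 with its size factors. Leaving out libraries took *Neurog3* from −0.46 to 0.046 and *Sox3* from −0.34 to 0.081 in the Thy1+ genotype comparison, *Sox3* from −0.16 to 0.036 in the c-Kit+ comparison (−0.18 to 0.045 with the block), *Foxo1* from −0.028 to 0.099 between mutant populations, and *Sox3* from −0.19 to 0.29 and *Uchl1* from −0.17 to 0.37 in the interaction. The cause was not tested.

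Over all genes, the Thy1+ genotype comparison called 0 genes in the unpaired fit, 319 by the exact test, 378 by DESeq2, 250 in the fit of 12 libraries, 1414 with the replicate block and 6181 with the block and germ cell scaling; 10 were called without Thy1+ control replicate 1. The c-Kit+ comparison called 3812, or 7326 under germ cell scaling (7546 with the block) and 6710 without the minimum fold. Between control populations germ cell scaling gave 7864 in place of 4823. Between mutant populations it gave 5319 in place of 3525, and leaving out c-Kit+ mutant replicate 2 gave 2341. The interaction called 0, 64 by DESeq2, 446 with the replicate block and 1 without c-Kit+ control replicate 3. Between mutant populations, where the numbers did not pair the libraries (same-number r of 0.0211 to 0.204, others −0.156 to 0.0860, and each number 1 library correlated best with a number 3 library), the replicate block called *Neurog3* lower in Thy1+ than in c-Kit+ mutants (−0.56, adjusted p = 0.0266); apart from this, the Thy1+ genotype comparison and *Zbtb16* in the interaction, it changed no call of the 8 genes. Counts of 34 to 62 for *Nanos3* and 68 to 124 for *Upp1* limit their precision in c-Kit+ cells.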
